A study of Homo sapiens with 6 samples.

Results

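The genes described here encode the non-collagen part of the extracellular matrix: 45 listed glycoproteins and proteoglycans, chosen by name and divided by role into laminins with their nidogen linkers (11 genes), elastic fibre proteins (11), adhesive and matricellular proteins (8), and proteoglycans with hyaluronan genes (15). Of the 45, 43 had a row among the 22481 genes of the count table, and 40 passed the filter on low counts. They were read in 143B, a human osteosarcoma cell line, in 3 wells to which celastrol was added for 24 h and 3 control wells grown over the same time. All 6 wells stood in 1 plate, so p-values measure the spread between wells of that plate, which may be technical. The labels name neither the dose nor a vehicle, and both groups share the line and the plate.

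Matrix glycoproteins and proteoglycans form the meshwork outside cells. Laminins are heterotrimers of an alpha, a beta and a gamma chain, and they polymerise into the basement membrane, where nidogens and the proteoglycan perlecan tie them to collagen IV. Fibrillins and fibulins carry elastin and hold growth factors of the TGF-beta family in reserve. Matricellular proteins such as thrombospondins and tenascin-C modulate adhesion rather than bear load, and syndecans and glypicans present growth factors on heparan sulfate chains at the cell surface.

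Libraries held 38408143 to 39453778 counts. A gene read 0 times could still lie under 3 counts, which is 0.0760 to 0.0781 CPM (counts scaled to 1e+06 per library). The limit covers counting error only. Levels are given below in CPM, scaled by trimmed mean of M values (TMM), except where levels of different genes are set side by side, which is done in the deposited FPKM (fragments scaled by gene length and library total). The 9 mesenchymal and osteosarcoma markers in the table summed to 3226 to 3314 CPM with celastrol and 3989 to 4209 CPM in controls, most of it VIM at 2499 to 2588 CPM with celastrol and 3275 to 3559 CPM in controls. By edgeR, VIM (log2 fold change -0.42), RUNX2 (-0.90), ALPL (-1.18) and ENG (-0.34) were lower with celastrol and COL1A1 (0.66) and CDH2 (0.35) higher, SPARC and NT5E were not called, and COL1A2 was at or near 0 in all libraries. Of the markers of other cells, CDH1 (epithelial) was at most 0.026 CPM, PTPRC (leukocyte) at most 0.152 and CDH5 (endothelial) at most 0.026 in any library. Others were read: EPCAM stood at 6.67 to 7.14 CPM with celastrol and 5.71 to 6.497 CPM in controls, and the endothelial marker ERG at 4.49 to 6.35 CPM with celastrol and 5.20 to 7.06 CPM in controls. CLDN4 and KDR, at most 1.45 and 1.42 CPM in any library, were lower with celastrol (-1.57 and -1.40). The far more abundant KRT8 (-0.24) and CD68 (-0.39) were also called lower by edgeR, and KRT18, EPCAM, ERG and CD14 were not called. The 7 epithelial markers in the table summed to 1210 to 1292 CPM with celastrol and 1325 to 1340 CPM in controls, nearly all of it from KRT18 and KRT8. The 5 leukocyte markers summed to 141 to 165 CPM with celastrol and 194 to 207 CPM in controls, nearly all of it CD68. The 6 endothelial markers summed to 4.97 to 7.16 CPM with celastrol and 6.52 to 8.87 CPM in controls. The part of these markers in the results below was not tested.

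Most of the matrix genes were lower in the celastrol wells. In the quasi-likelihood test of edgeR, at a Benjamini-Hochberg adjusted p under 0.05 over all genes, 25 of the 40 tested members fell and 3 rose, against 24.8% of all 15387 tested genes lower and 23.6% higher, or 48.4% called in all. The median log2 fold change, celastrol over control, was -0.48 over the tested members and -0.00024 over all tested genes. In 28 of the 40 members the groups did not overlap, 25 with every celastrol well below every control well and 3 above, against 28.6% and 28.4% of all tested genes (56.9% together). When 10 CPM were required in 3 libraries, 57.7% of genes were called and 29.7% were lower, and of the 36 members then tested 25 were again lower and 3 higher. Of the 40 tested members, 4 were called at least 2-fold lower, against 6.05% of all tested genes, and 0 at least 2-fold higher, against 3.28%. In bulk RNA, less RNA of a gene per cell and fewer cells that carry it cannot be told apart.

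The members together took 0.371%, 0.376% and 0.362% of all counts in celastrol replicates 1, 2 and 3, against 0.470%, 0.487% and 0.457% in control replicates 1, 2 and 3. Laminins and nidogens summed to 1238 ± 19.6 CPM with celastrol and 1915 ± 75.5 CPM in controls (SD, n = 3), and elastic fibre genes to 454.9 ± 3.89 and 573.6 ± 24.2 CPM with celastrol and in controls. Proteoglycan and hyaluronan genes summed to 1431 ± 37.1 CPM with celastrol and 1733 ± 48.0 CPM in controls. The adhesive and matricellular genes summed to 521.2 ± 7.87 CPM with celastrol and 562.0 ± 41.8 CPM in controls, and these 2 ranges overlapped. Per length, this group summed to 86.6, 86.2 and 83.4 FPKM with celastrol, against 77.3, 84.3 and 77.6 FPKM in controls. The FPKM sums overlapped as well, but leaned higher with celastrol.

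**Figure D1:**
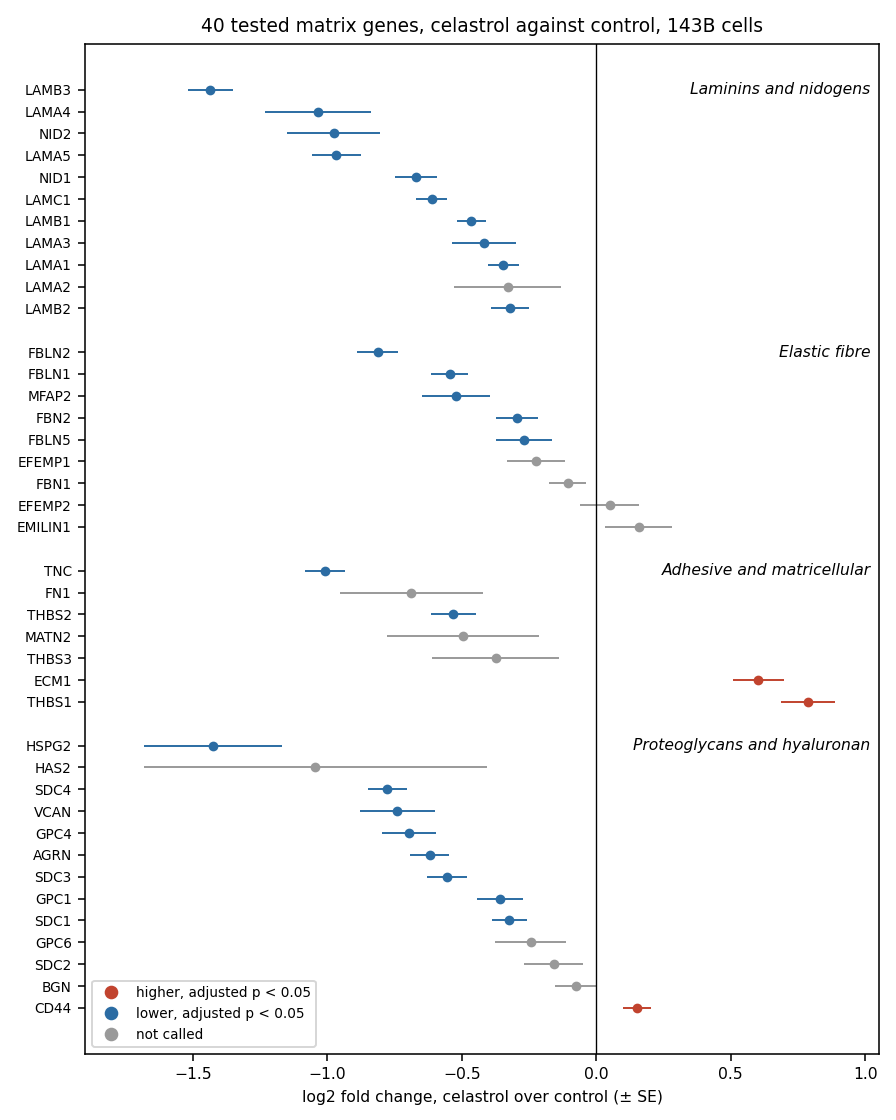
Log2 fold change of each tested matrix gene, celastrol over control, with its standard error as a bar, grouped by role (x axis: log2 scale). Points left of 0 are lower with celastrol. Of the 40 genes, 25 are lower and 3 (THBS1, ECM1 and CD44) higher at an adjusted p under 0.05.

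The promoters of the members with the largest called fall among laminins (LAMB3), the largest among proteoglycans (HSPG2) and the largest rises (THBS1 and ECM1) are shown so that the genes that moved apart can be read side by side. Each is the 250 bases before the RefSeq start on GRCh38.p14, 5′ to 3′ on the gene's strand, and capitals mark matches on either strand to the GC box (GGGCGG), the AP-1 motif (TGANTCA), the TEAD motif (GGAATG) or TATAAA.
LAMB3: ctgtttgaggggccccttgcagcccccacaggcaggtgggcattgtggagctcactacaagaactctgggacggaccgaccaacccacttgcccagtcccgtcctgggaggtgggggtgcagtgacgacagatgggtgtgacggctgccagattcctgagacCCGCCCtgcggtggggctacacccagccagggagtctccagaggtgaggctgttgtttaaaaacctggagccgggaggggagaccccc
HSPG2: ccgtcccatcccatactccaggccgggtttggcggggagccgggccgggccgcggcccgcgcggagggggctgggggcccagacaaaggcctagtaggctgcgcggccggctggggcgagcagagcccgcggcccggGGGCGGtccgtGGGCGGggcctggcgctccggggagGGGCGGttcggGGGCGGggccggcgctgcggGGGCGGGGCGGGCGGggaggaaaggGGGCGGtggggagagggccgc
THBS1: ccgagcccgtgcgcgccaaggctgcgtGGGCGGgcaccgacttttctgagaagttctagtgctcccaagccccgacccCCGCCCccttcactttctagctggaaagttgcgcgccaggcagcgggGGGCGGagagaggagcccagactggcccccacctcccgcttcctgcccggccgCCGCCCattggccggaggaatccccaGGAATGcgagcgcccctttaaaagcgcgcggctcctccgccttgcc
ECM1: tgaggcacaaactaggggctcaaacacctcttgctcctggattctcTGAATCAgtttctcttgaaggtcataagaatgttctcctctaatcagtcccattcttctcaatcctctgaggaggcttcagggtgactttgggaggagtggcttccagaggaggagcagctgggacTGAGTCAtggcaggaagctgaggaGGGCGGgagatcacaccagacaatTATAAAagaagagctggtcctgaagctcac
They lie at chr1:209652426-209652675 (minus strand), chr1:21937311-21937560 (minus), chr15:39580829-39581078 (plus) and chr1:150507859-150508108 (plus). LAMB3 held 1 GC box in 64.0% G and C. HSPG2 held 8 GC boxes in 82.8%, some of which overlap. THBS1 held 4 GC boxes and a TEAD match at -46 in 69.6%. ECM1 held AP-1 matches at -204 and -78, 1 GC box and TATAAA at -30 in 50.4% (positions are those of the first base, counted from the start). The median promoter held 58.0% G and C. RefSeq promoters were matched for 33 members, and for 26 of them bases after the start were found in a GENCODE transcript of the gene. Some of the 250-base stretches, such as those of LAMA3, GPC6 and THBS3, lie inside the RefSeq bounds of the gene. A GC box was found in 20 of 23 promoters of members that fell, 3 of 3 of members that rose and 4 of 7 of members not called, against 42.3% of all 27305 promoters of this length. In the same order, the AP-1 motif was in 2 of 23, 1 of 3 and 0 of 7, against 6.60% of all promoters, and the TEAD motif in 1 of 23, 1 of 3 and 2 of 7, against 11.9%. These are matches of letters only, and the part of G and C content in these shares was not tested.

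Nearly all laminin chains and nidogens were lower with celastrol, by differing amounts. Of 11 tested, 10 were lower and 0 higher by edgeR, against 24.8% lower and 23.6% higher over all tested genes. DESeq2 and limma-voom also called 0 of the 11 higher, and 0 were higher at a raw p under 0.05. The median log2 fold change was -0.61, with a range of -1.43 to -0.32. LAMB3, the beta chain of the epithelial anchoring laminin (NCBI gene 3914, chromosome 1, 209614870 to 209652425), had 101, 102 and 96.8 CPM in the celastrol wells, against 229.7, 279 and 304 CPM in the control wells. Every celastrol well was well below every control well, and the celastrol wells lay close together (log2 fold change -1.43 ± 0.084 SE, adjusted p = 3.34e-09). LAMA4, the alpha chain of mesenchymal and vascular laminins, had 6.85, 12.05 and 6.34 CPM with celastrol, against 16.6, 18.5 and 16.7 CPM in controls. Celastrol replicate 2 stood nearest the controls without reaching them (-1.04 ± 0.20, adjusted p = 0.00065). LAMA5, the alpha chain of many adult basement membranes, had 68.7, 66.4 and 58.2 CPM with celastrol, against 141, 128 and 108 CPM in controls (-0.97 ± 0.091, adjusted p = 3.91e-07).

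Other chains fell by less than LAMB3, LAMA4 and LAMA5. LAMB1, a widely expressed beta chain and the member with the highest control level per length, had 442, 459 and 449.6 CPM with celastrol, against 616, 643 and 603 CPM in controls (-0.46 ± 0.053, adjusted p = 1.48e-06). LAMC1, the gamma chain shared by most laminins, had 247, 247 and 246 CPM with celastrol, against 365, 400.2 and 365 CPM in controls (-0.61 ± 0.058, adjusted p = 1.75e-07). In both genes the groups stood clear of each other, and the celastrol wells were nearly equal. LAMA1, a chain known from embryonic basement membranes (-0.35, adjusted p = 9.73e-05), and LAMB2, the beta chain of the neuromuscular junction and glomerulus (-0.32, adjusted p = 0.00113), fell too. LAMA3, the alpha partner of LAMB3 in that laminin, had 37.6, 37.9 and 38.1 CPM with celastrol, against 56.8, 56.1 and 38.7 CPM in controls. Control replicate 3 was close to the celastrol wells (-0.42 ± 0.12, adjusted p = 0.00826), and the call was lost by limma on log2(FPKM + 1) (adjusted p = 0.0830). LAMA2, the muscle laminin alpha chain, was the uncalled member, at 6.42 to 9.01 CPM with celastrol and 6.36 to 11.1 CPM in controls (-0.33 ± 0.20, adjusted p = 0.184). Without control replicate 3 it passed (adjusted p = 0.0203).

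Nidogens followed. NID1, which bridges laminin and collagen IV, had 85.0, 98.1 and 86.3 CPM with celastrol, against 136, 159 and 134 CPM in controls (-0.67 ± 0.078, adjusted p = 2.09e-06). NID2, its paralog, had 5.53, 8.99 and 6.95 CPM with celastrol, against 12.1, 16.4 and 13.8 CPM in controls (-0.98 ± 0.17, adjusted p = 0.000163). Both genes were lower in every celastrol well. In GENCODE 29, 30.0% of the exon bases of NID2 are shared with RTRAF on the opposite strand, which had a mean of 5456 counts against 412 for NID2, so reads of RTRAF may be in the value of NID2, by how much is not known.

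Because the chains fell by different amounts, their mix differed between the groups. Per length, LAMB3 made up 22.0%, 21.7% and 21.0% of beta chain FPKM in celastrol replicates 1, 2 and 3, against 31.9%, 35.3% and 38.4% in control replicates 1, 2 and 3. LAMB1 made up 66.8%, 67.9% and 68.1% with celastrol, against 59.7%, 56.9% and 53.2% in controls. The beta chain sum itself was 102 to 105.5 FPKM with celastrol and 157 to 172 FPKM in controls. Of alpha chain FPKM, LAMA1 held 61.8%, 59.5% and 64.0% with celastrol, against 51.7%, 53.5% and 57.7% in controls, and LAMA5 held 21.5%, 20.7% and 18.7% with celastrol, against 29.4%, 26.9% and 25.7% in controls. Neither pair of ranges overlapped.

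**Figure D2:**
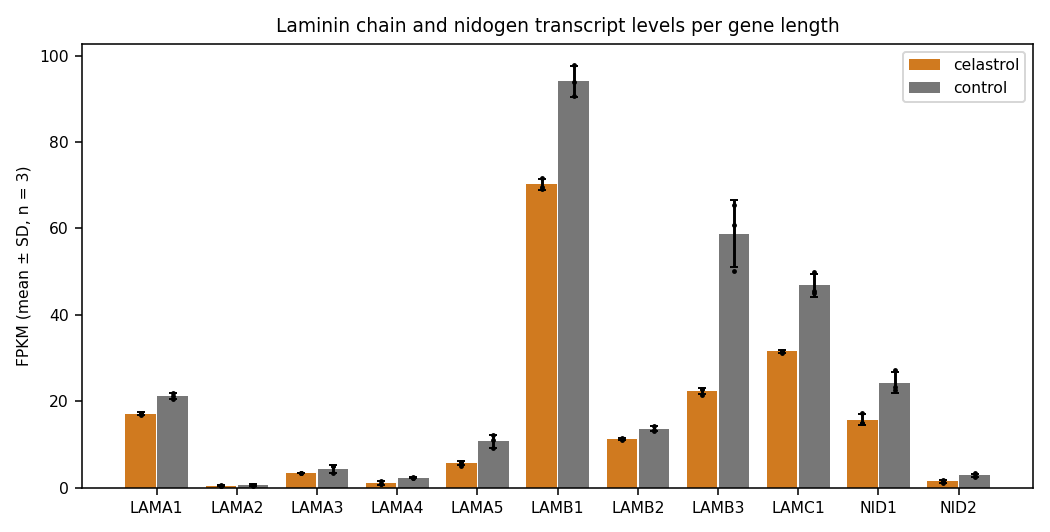
Transcript level of each laminin chain and nidogen (y axis: FPKM; bars: mean, whiskers: SD, dots: the 3 wells), celastrol left of control. LAMB1, LAMB3 and LAMC1 have the highest control levels, and the LAMB3 bar is 22.4 FPKM with celastrol against 58.8 FPKM in controls.

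Elastic fibre genes were lower in part. Of 9 tested, 5 fell and 0 rose by edgeR, against 24.8% lower and 23.6% higher over all tested genes. DESeq2 and limma-voom also called 0 of the 9 higher, and 0 were higher at a raw p under 0.05. The median log2 fold change was -0.27, and none of the 5 fell by 2-fold. By limma on log2(FPKM + 1), 3 were lower. FBLN2, which binds fibrillin, fibronectin and basement membrane proteins, had 45.2, 43.2 and 41.4 CPM in the celastrol wells, against 71.0, 78.7 and 78.2 CPM in controls (-0.81 ± 0.076, adjusted p = 1.76e-07). FBLN1, which binds fibronectin and elastin, had 88.5, 92.0 and 81.4 CPM with celastrol, against 131, 130.1 and 121 CPM in controls (-0.54 ± 0.069, adjusted p = 4.47e-06). MFAP2, a small microfibril protein, had 11.3, 10.6 and 11.0 CPM with celastrol, against 17.3, 16.1 and 13.8 CPM in controls (-0.52 ± 0.13, adjusted p = 0.00249). In these genes every celastrol well was below every control well.

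Of the fibrillins, which build the microfibrils, FBN2 was called lower and FBN1 was not called. FBN2, the fibrillin of early development, had 102, 100.01 and 112 CPM with celastrol, against 137, 136 and 113 CPM in controls. Celastrol replicate 3 and control replicate 3 nearly met (-0.30 ± 0.078, adjusted p = 0.00442), and the call was lost by limma on log2(FPKM + 1) (adjusted p = 0.0589). FBN1, the main fibrillin of adult tissue, had 102, 107 and 109 CPM with celastrol, against 109.9, 123 and 108.7 CPM in controls (-0.11 ± 0.069, adjusted p = 0.213). FBLN5, needed for elastin assembly, had 21.3, 19.9 and 20.9 CPM with celastrol, against 23.6, 23.4 and 27.7 CPM in controls (-0.27 ± 0.10, adjusted p = 0.0413). Its call did not hold without celastrol replicate 1, 2 or 3 (adjusted p = 0.0776, 0.117 and 0.0909), without control replicate 3 (0.192) or with library size alone (0.0787).

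Other elastic fibre genes did not pass the test. EFEMP1, the gene of fibulin-3, had 43.9, 43.1 and 46.8 CPM with celastrol, against 41.3, 58.4 and 56.6 CPM in controls (-0.22 ± 0.11, adjusted p = 0.0998), and without control replicate 1, which alone was low, it passed (adjusted p = 0.000313). EFEMP2, the gene of fibulin-4, stood at 20.7 to 23.0 CPM with celastrol and 19.2 to 23.1 CPM in controls. EMILIN1, a glycoprotein at the interface of elastin and microfibrils, stood at 14.7 to 17.7 CPM with celastrol and 13.5 to 15.7 CPM in controls (adjusted p = 0.307). ELN, elastin itself, had 0, 4 and 0 counts with celastrol and 0, 0 and 4 counts in controls, too few to test, and MFAP5 had no row in the table.

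Of the 7 tested adhesive and matricellular genes, 2 fell and 2 rose, which is close to the shares over all tested genes (24.8% lower and 23.6% higher), with a median log2 fold change of -0.50. TNC, the anti-adhesive glycoprotein tenascin-C (NCBI gene 3371, chromosome 9, 115019575 to 115118157), had 72.8, 80.9 and 71.0 CPM in the celastrol wells, against 158, 157 and 137 CPM in the controls. The groups were far apart (-1.01 ± 0.074, adjusted p = 1.22e-08). THBS2, thrombospondin-2, an inhibitor of angiogenesis, had 34.6, 32.6 and 37.0 CPM with celastrol, against 50.7, 50.0 and 49.9 CPM in controls (-0.53 ± 0.082, adjusted p = 3.99e-05).

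The opposite was seen for its paralog. THBS1, thrombospondin-1, which activates latent TGF-beta and binds CD47 (NCBI gene 7057, chromosome 15, 39581079 to 39599466), had 266, 200.3 and 252 CPM with celastrol, against 123, 147 and 146 CPM in controls. All celastrol wells were above all controls, replicate 2 by the least (0.79 ± 0.10, adjusted p = 4.13e-05). Of the summed FPKM of THBS1, THBS2 and THBS3, THBS1 made up 86.0%, 82.8% and 85.0% with celastrol, against 66.5%, 70.3% and 70.6% in controls. THBS2 made up 12.5%, 15.0% and 13.95% of it with celastrol, against 30.6%, 26.6% and 27.0% in controls. This sum leaves out the related genes THBS4 (mean 0.926 FPKM with celastrol, 1.24 in controls) and COMP (0.097 and 0.336). ECM1, a secreted glycoprotein that binds perlecan and other matrix proteins, had 55.7, 58.7 and 54.7 CPM with celastrol, against 43.2, 35.0 and 33.0 CPM in controls (0.60 ± 0.095, adjusted p = 5.00e-05). Its celastrol wells were also all above its control wells.

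FN1, fibronectin, the main adhesive glycoprotein of fibroblast matrix, varied widely between wells of a group. It had 92.5, 147 and 94.3 CPM with celastrol, against 139.6, 208 and 189 CPM in controls. Celastrol replicate 2 lay above control replicate 1, so the groups overlapped (-0.69 ± 0.27, adjusted p = 0.0966). Without celastrol replicate 2 the fall passed (-0.94, adjusted p = 0.00212), as it did by DESeq2 (0.0324) and by limma on log2(FPKM + 1) (0.0228). THBS3 (adjusted p = 0.203) and MATN2, a filamentous adaptor protein (adjusted p = 0.155), were at 0.567 and 0.440 FPKM with celastrol and 0.715 and 0.604 FPKM in controls. On the opposite strand, AC234582.1 shares 22.2% of the exon bases of THBS3, and no count was found under that name. MTX1 shares 3.16%, with a mean of 198.8 counts against 132 for THBS3, so other reads may be in the THBS3 value. POSTN, periostin, had no row in the table.

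**Figure D3:**
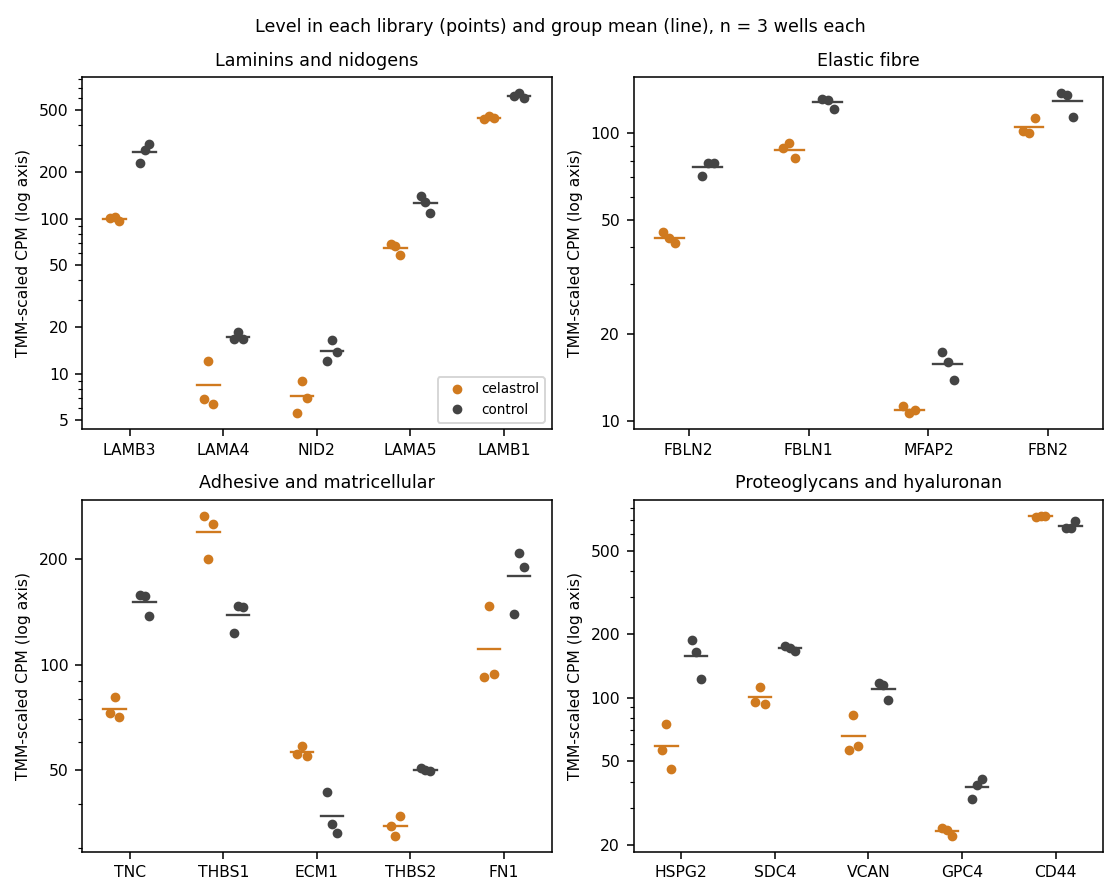
Level of the members named by size of change or by level, in each library (y axis: TMM-scaled CPM, log axis; points: wells; lines: group means, n = 3), celastrol left of control. THBS1, ECM1 and CD44 lie higher with celastrol, FN1 overlaps between groups, and the other genes lie lower.

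Proteoglycan genes fell as well. Of 13 tested proteoglycan and hyaluronan genes, 8 were lower and 1 higher, against 24.8% and 23.6% of all tested genes. The median log2 fold change of the 13 was -0.56. Among the secreted basement membrane proteoglycans, HSPG2, perlecan (NCBI gene 3339, chromosome 1, 21822244 to 21937310), had 56.6, 75.0 and 45.7 CPM in the celastrol wells, against 187, 165 and 123 CPM in the controls. Both groups were wide, and the celastrol wells were all lower (-1.42 ± 0.26, adjusted p = 0.00916). Its exons share 11.7% of their bases with LDLRAD2 on the opposite strand, which had a mean of 12.3 counts, against 4212 for HSPG2. AGRN, agrin, which links laminin to dystroglycan, had 127, 115 and 109.7 CPM with celastrol, against 198, 168 and 175 CPM in controls (-0.62 ± 0.074, adjusted p = 2.54e-06). VCAN, versican, a large hyaluronan-binding proteoglycan, had 56.3, 82.4 and 59.1 CPM with celastrol, against 117, 115 and 97.9 CPM in controls. The wells did not overlap (-0.74 ± 0.14, adjusted p = 0.00206), but the call was lost without control replicate 1 (adjusted p = 0.0580).

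The small leucine-rich proteoglycans showed no called change. BGN, biglycan, had 61.7, 55.3 and 61.9 CPM with celastrol, against 66.3, 60.9 and 61.5 CPM in controls (-0.076 ± 0.076, adjusted p = 0.432). DCN, decorin, had 0, 0 and 1 count with celastrol and 0 counts in each control, and LUM, lumican, had 0 counts in each celastrol well and 0, 1 and 0 in controls, all within the limit that a count of 0 allows.

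Of the 4 syndecans, the transmembrane heparan sulfate proteoglycans, 3 fell, against 24.8% of all tested genes. SDC4, the syndecan of focal adhesions, had 95.7, 112 and 93.3 CPM in the celastrol wells, against 177, 172 and 167 CPM in controls (-0.78 ± 0.072, adjusted p = 1.65e-07). SDC3, known from neural and muscle tissue, had 48.7, 45.8 and 49.4 CPM with celastrol, against 72.4, 71.0 and 68.2 CPM in controls (-0.56 ± 0.073, adjusted p = 7.50e-06). SDC1, the syndecan of epithelia and plasma cells, fell by less, with 111, 98.9 and 107 CPM with celastrol, against 130.0, 135 and 131 CPM in controls (-0.32 ± 0.065, adjusted p = 0.000504). SDC2, the syndecan of mesenchymal cells, had 22.4, 18.4 and 20.7 CPM with celastrol, against 20.7, 24.0 and 23.9 CPM in controls, and the groups overlapped (-0.16 ± 0.11, adjusted p = 0.247). Of syndecan FPKM, SDC4 held 45.4%, 52.2% and 45.5% with celastrol, against 56.1%, 54.6% and 54.5% in controls.

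Of the glypicans, which are anchored by a lipid tail, GPC4 had 24.1, 23.5 and 22.1 CPM with celastrol, against 32.9, 38.7 and 41.3 CPM in controls (-0.70 ± 0.10, adjusted p = 1.71e-05). GPC1 had 89.7, 80.0 and 71.5 CPM with celastrol, against 112, 103 and 93.8 CPM in controls (-0.36 ± 0.086, adjusted p = 0.00219). In both, the groups did not overlap. GPC6 had 21.2, 23.5 and 16.1 CPM with celastrol, against 26.9, 24.0 and 21.1 CPM in controls (-0.24 ± 0.13, adjusted p = 0.138), and passed without celastrol replicate 2 (adjusted p = 0.0467).

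CD44, the hyaluronan receptor, was the called rise among the proteoglycan and hyaluronan genes. It had 724, 734 and 734 CPM with celastrol, against 644, 641 and 688 CPM in controls (0.15 ± 0.052, adjusted p = 0.0227). The rise was small, although the groups did not overlap, and the call was lost without celastrol replicate 1, 2 or 3 (adjusted p = 0.0769, 0.0617 and 0.0919) or control replicate 2 (0.0891). HAS2, a hyaluronan synthase, was barely read, with 17, 16 and 15 counts with celastrol, against 66, 23 and 7 counts in controls (adjusted p = 0.187). Without control replicate 3 it passed (adjusted p = 0.0489), and without control replicate 1 its log2 fold change was 0.033.

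Read per length, the order of the members differed between the groups. In controls LAMB1 (94.1 ± 3.65 FPKM) and CD44 (91.9 ± 2.98 FPKM) led and did not differ beyond their spread. SDC4 (64.9 ± 2.28 FPKM) and LAMB3 (58.8 ± 7.82 FPKM) followed, also within their spread of each other (SD, n = 3). With celastrol CD44 led at 105.0 ± 0.620 FPKM, ahead of LAMB1 at 70.2 ± 1.29, SDC4 at 39.0 ± 4.10, LAMC1 at 31.5 ± 0.261 and THBS1 at 31.2 ± 4.50 FPKM. LAMC1 and THBS1 lay within their spread. In all, 36 members had a mean of at least 1 FPKM in controls.

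Genes that work beside these members were read from lists by role. Of 40 tested other matrix genes, 22 fell and 2 rose, against 24.8% lower and 23.6% higher over all tested genes. Their median log2 fold change was -0.48. CCN1, a matricellular integrin ligand, had 189, 176 and 190.0 CPM with celastrol, against 827, 1263 and 1271 CPM in controls (-2.60 ± 0.20, adjusted p = 0.000266). CCN2, connective tissue growth factor, had 139, 109 and 137 CPM with celastrol, against 593, 817 and 867 CPM in controls (-2.57 ± 0.19, adjusted p = 0.000166). In both, control replicate 1 was the lowest control and still far above the celastrol wells. BCAM, a laminin alpha-5 receptor, averaged 9.88 ± 1.60 CPM with celastrol and 24.6 ± 1.69 CPM in controls (-1.32, adjusted p = 2.82e-07). The rises were DAG1, dystroglycan, a laminin and agrin receptor (0.44), and SVEP1 (0.30).

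Of 39 tested genes of glycosaminoglycan synthesis, 17 were lower and 9 higher (median -0.15), against 24.8% lower and 23.6% higher over all tested genes, so the count of rises was near that of genes at large. CHST11, a chondroitin sulfotransferase, had 12.1, 17.4 and 12.05 CPM with celastrol, against 30.2, 40.3 and 42.6 CPM in controls (-1.45 ± 0.16, adjusted p = 6.28e-06). XYLT1, which starts the chains by adding xylose to the core protein, had 9.56, 10.6 and 8.22 CPM with celastrol, against 21.0, 19.2 and 21.5 CPM in controls (-1.12 ± 0.13, adjusted p = 1.40e-06). B3GALT6, a galactosyltransferase of the same linker, had 49.0, 42.4 and 44.9 CPM with celastrol, against 19.6, 13.9 and 15.1 CPM in controls (1.48 ± 0.12, adjusted p = 3.13e-08).

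Of 8 tested genes of hyaluronan turnover, 3 rose and 3 fell, against 23.6% higher and 24.8% lower over all tested genes. CEMIP, a hyaluronan-degrading protein (0.86, adjusted p = 2.11e-06), and HYAL3, a hyaluronidase family member (1.72, adjusted p = 6.91e-06), rose, as did CEMIP2 (0.45). The synthase HAS3 (-0.91, adjusted p = 7.02e-05), the hyaluronidase HYAL2 (-0.39, adjusted p = 0.00380) and the link protein gene HAPLN3 (-0.75) fell. HYAL2 had 31.8, 31.3 and 25.8 CPM with celastrol, against 39.6, 41.4 and 35.3 CPM in controls, with every celastrol well below every control well. HYAL3 was low, at 6.61 to 9.14 CPM with celastrol and 2.00 to 3.46 CPM in controls. Of 7 tested genes of elastin cross-linking and maturation, 4 fell and 0 rose by edgeR, against the same shares of 24.8% and 23.6%. DESeq2 and limma-voom also called 0 of the 7 higher, and 0 were higher at a raw p under 0.05. The lysyl oxidases LOX (-0.56, adjusted p = 2.75e-05), LOXL1 (-0.43, adjusted p = 0.000464) and LOXL2 (-0.56, adjusted p = 7.10e-07) were among the 4 that fell.

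**Figure D4:**
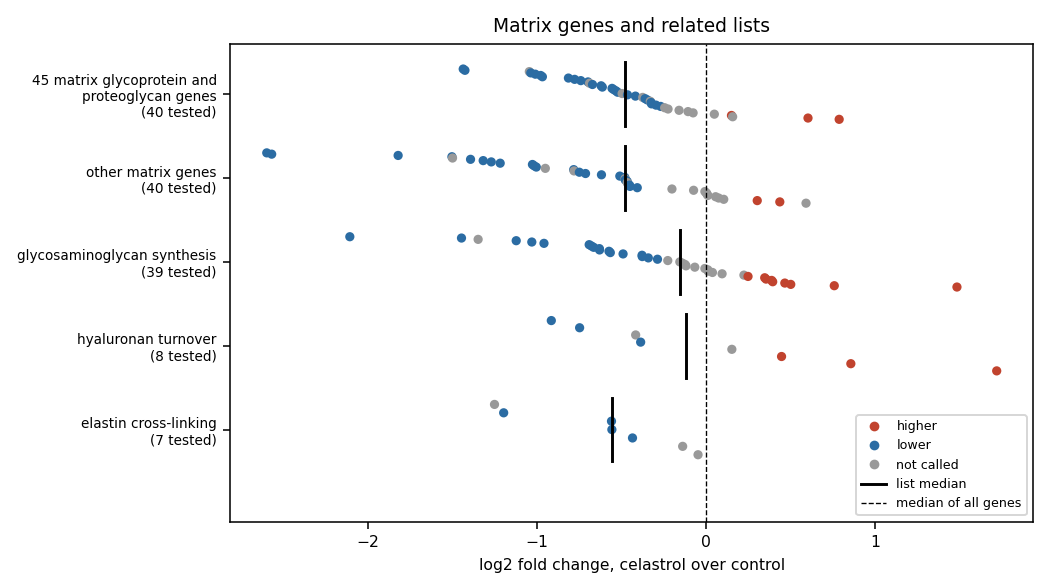
Log2 fold change, celastrol over control, of each tested gene (points) in the matrix glycoprotein and proteoglycan list and in 4 related lists, with list medians (bars) and the median of all tested genes (dashed line). Members and other matrix genes have medians of -0.48, and genes of glycosaminoglycan synthesis and hyaluronan turnover spread to both sides.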

How the data were processed

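Both tables were deposited by the authors: raw read counts of each gene, in whole numbers, and FPKM values, which are those counts over library total and gene length (in 20198 of 20198 genes with counts in at least 2 libraries the implied length was the same within 1e-06). RNA was poly(A)-selected and the second strand labelled with dUTP, per the labels' protocols. The build was hg38, and the programs named in the submitters' processing notes are HISAT2 2.2.1, cutadapt 1.9, edgeR, StringTie 2.1.6 and DESeq2. Their roles, the annotation and whether counting used strand are not given in the sources used here.

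Counts were filtered with filterByExpr (15387 of 22481 genes), TMM-scaled and compared by the quasi-likelihood test of edgeR 4.0.16 (R 4.3.3) with robust dispersion. The fit had no block, and p-values were adjusted over all tested genes. SE is the absolute log2 fold change over the root of F. Members shown in full are, per role, the up to 4 called members with the largest change at a log2 CPM of at least 1 and the 2 highest by control FPKM. Others are added for completeness. Of each related list, up to 3 called genes with the largest change at a log2 CPM of at least 2 are shown, and other related genes were chosen after their values were seen. Members, lists and tests were chosen with earlier results of these data known. Alternatives used DESeq2 1.42.0, limma 3.58.1, other scalings, filters and FPKM pseudocounts (1 and 0.1), the replicate number as a block, and left-out libraries. MFAP5 and POSTN were not analysed here. Exon overlaps come from GENCODE 29 (GRCh38), and coordinates and promoters from RefSeq GRCh38.p14, matched by NCBI gene ID.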

Additional observations from a re-analysis of the deposited data

How the results depend on the processing

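Over up to 16 alternatives a gene, 23 of the 28 called members kept their direction and call in each. LAMA3, FBN2, FBLN5, VCAN and CD44 lost the call under at least 1. LAMA3 and CD44 also lost it without celastrol replicate 2 and control replicate 1 together (adjusted p = 0.0756 and 0.0668), and FBLN5 by limma on log2(FPKM + 1) (0.0659) and with no filter (0.0524). Of the 12 uncalled members, 5 passed under at least 1. Member counts were 23 to 26 lower and 2 or 3 higher under the alternatives. Without each library in turn, 24 to 26 members were lower and 2 or 3 higher, with 10 or 11 laminins and nidogens, 4 to 6 elastic fibre genes, 2 or 3 adhesive and matricellular genes and 7 to 9 proteoglycan and hyaluronan genes lower, and 0 or 1 of the last group higher. That group had 0 higher without celastrol replicate 2 and control replicate 1 together. Elastic fibre genes lower numbered 3, against 5, by limma on log2(FPKM + 1) and log2(FPKM + 0.1). Other matrix genes higher numbered 1, against 2, by both of these and without any 1 of celastrol wells 1 and 3 and control wells 2 and 3, and hyaluronan turnover genes lower numbered 1, against 3, with at least 10 CPM required in 3 libraries. The sign turned for the uncalled members BGN, EFEMP2 and HAS2. BGN, at -0.076 in the main fit, was 0.014 without celastrol replicate 2 and control replicate 1, and as low as -0.107 without 1 library. EFEMP2, at 0.050 in the main fit, was -0.00492 without celastrol replicate 1, -0.00475 without control replicate 3, and up to 0.154. HAS2, at -1.04 in the main fit, was 0.033 without control replicate 1 and -1.52 without control replicate 3. Without celastrol replicate 2 and control replicate 1 together, HAS2 was 0.031. The cause was not tested. With library size alone the median of all genes was 0.041 and 24 members were lower.

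Well numbers were not shown to pair the wells. Deviations of same-numbered wells from their group means correlated at 0.0582, 0.0549 and 0.0341, though each well correlated best with its own number. With the replicate block, 26 members were lower and 3 higher, 3 adhesive and matricellular genes were lower, and FN1 passed (adjusted p = 1.93e-05). Depth limits ELN, DCN, LUM and HAS2.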

Other observations

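Some genes of the related lists that the naming rule did not take, 2 of them for low counts (GPC2 and CSGALNACT1), were chosen after their values were seen. GPC2, a glypican of neural tissue, averaged 1.30 CPM with celastrol and 3.69 CPM in controls (log2 fold change -1.50 by edgeR), and CSGALNACT1, which starts chondroitin sulfate chains, averaged 0.437 CPM with celastrol and 1.89 CPM in controls (-2.11). CSPG4, a transmembrane chondroitin sulfate proteoglycan, averaged 43.4 CPM with celastrol and 87.1 CPM in controls (-1.003), and SULF2, which trims sulfate from heparan sulfate at the cell surface, averaged 32.8 CPM with celastrol and 67.0 CPM in controls (-1.03). In the glycosaminoglycan synthesis list, 9 genes were called higher and 17 lower by edgeR. Besides B3GALT6, the rises were CHPF2 (0.76), B3GAT3 (0.50), HS2ST1 (0.47), EXTL2 (0.39), SLC35B2 (0.39), CHST12 (0.36), B4GALT7 (0.35) and UGDH (0.25). The latent TGF-beta binding proteins LTBP1 (-0.48), LTBP2 (-0.41), LTBP3 (-0.62) and LTBP4 (-0.71) were each lower and each called by edgeR. SPARC and TGFBI, abundant matrix glycoproteins of bone and connective tissue, averaged 365 and 408.5 CPM with celastrol and 364 and 429.7 CPM in controls and were not called.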
